A study of Homo sapiens with 13 samples.

Results

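The replication licensing genes described here are 10 genes whose products make up, load or restrain the loading of the replicative helicase before S phase, and they were taken by gene symbol from the 14576 genes with a 3′ end in the tables. They are the helicase subunits MCM2, MCM3, MCM4, MCM5, MCM6 and MCM7, the loading factors ORC1, CDC6 and CDT1, and the CDT1 inhibitor GMNN (geminin). Their poly(A) 3′ ends were counted by 3′ READS, which sequences the junction of the mRNA body and its poly(A) tail, in Flp-in TREX derivatives of HEK293, a line made from human embryonic kidney. The cells carried an integrated, doxycycline-inducible, Avitag-labelled Rpb1, the largest subunit of RNA polymerase II (Pol II), in an α-amanitin resistant form. It was either wild-type (WT, 5 libraries) or R749H (4 libraries), a substitution in the funnel domain that slows elongation.

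Both groups received doxycycline at 2 µg/ml, for 24 hr by the labels and for a shorter time by the study's methods, and then α-amanitin at 2.5 µg/ml for 42 hr. The drug blocks the cells' own Pol II, so both groups, the WT included, lived on the introduced subunit alone. Each group is 1 transfected cell line, so an effect of the R749H substitution cannot be told apart from any other difference between the lines. Its libraries are called biological replicates by the study, while the labels do not say whether they came from separate cultures. The p-values therefore measure the spread between these libraries, which may be technical in part. Reads within 5 kb of an open reading frame (ORF) numbered 2479851 to 10135014 in the WT libraries and 3863468 to 6475987 in the R749H libraries. R749H replicate 3 stood apart: isoforms with a single read made up 6.60% of its isoforms against 30.05 to 36.2% in the other libraries, and values without it are given beside the calls and for several other genes. VIM, KRT8 and KRT18 were present, whereas NEFL and NEFM, also known from HEK293 cells, had almost no reads. ALB, HBB, PTPRC and CD3E, markers of other cell types, reached at most 0.566 RPM (reads per 1000000 reads within 5 kb of an ORF), and a count of 0 in the shallowest library allows up to 1.21 RPM, for counting error only. NEFL, HBB and PTPRC had no 3′ end under their symbols in any library. Whether these genes lacked reads or an ORF entry was not tested. The R749H substitution itself cannot be read from 3′ ends, so the labels were not checked by the targeted gene.

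Licensing confines DNA replication to once per cell cycle. In G1 the origin recognition complex, of which ORC1 is the largest subunit, and CDC6 act with CDT1 to place MCM2–7 double hexamers around DNA at future origins. In S phase CDT1 is degraded and geminin holds back what is left of it, so that origins are not licensed again. Transcription of most of these genes is controlled by E2F factors, and HEK293 cells carry the adenovirus E1A protein, which takes the repressor RB away from E2F.

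Sequences of main 3′ ends of CDT1, GMNN, CDC6, MCM7, MCM3 and MCM2 show where these mRNAs ended. A poly(A) signal precedes each of these ends, and sequences of the other genes are not printed. Positions are given as the distance past the end of the ORF, which for 10 of 10 genes was a stop codon in the GRCh37 annotation. Each sequence is the 30 nt of the sense strand (GRCh37) up to and including the position of the 3′ end, with the poly(A) signal in capitals.
CDT1 +231, chr16:88874888-88874917, plus strand: tggattcacATTAAAccggtttctgtgggc
CDT1 +976, chr16:88875633-88875662, plus strand: ctaaactctAATAAAgtcatgcttacagcc
GMNN +249, chr6:24786247-24786276, plus strand: tattactaAATAAActtcaaactcctgttg
GMNN +296, chr6:24786294-24786323, plus strand: agaataatgaAATATAaggagtatgtgtag
CDC6 +917, chr17:38459141-38459170, plus strand: agattgtgAATATAtttattttcaagttgc
MCM7 +151, chr7:99690404-99690433, minus strand: ttttgctAATAAAagtgtttgtagattgtc
MCM7 +199, chr7:99690356-99690385, minus strand: gacttccATTAAAacagggttttgtgcgtt
MCM3 +567, chr6:52128819-52128848, minus strand: agatgttgAATAAActtagccatttcgtac
MCM2 +660, chr3:127341247-127341276, plus strand: tttaatttttAATAAAgttgAATAAAatat

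All of these lie in annotated 3′ UTRs. The 2 CDT1 ends carried different signals, the variant ATTAAA at the proximal end and the canonical AATAAA at the distal end, and the order was the other way around at MCM7. At GMNN the proximal end had AATAAA and the distal end the rarer AATATA. CDC6 had no AATAAA or ATTAAA at its main end, which held AATATA, and none of 12 signals searched at a second end at +823. Within 40 nt upstream of the most used end of 7874 genes, AATAAA was present in 67.7%, ATTAAA in 18.9% and AATATA in 3.61%, and 4.37% held none of the 12. The 40 nt upstream of the proximal CDT1 end contained 52.5% G+C, above 93.8% of the genes' main ends, whose median was 32.5%.

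The licensing genes spanned a wide range of levels, with the most reads at CDT1 and the fewest at ORC1. Levels are given as RPM, and because 3′ READS gives 1 read per mRNA end they need no correction for mRNA length. The share of mRNA ends recovered may still differ between genes, which was not tested. Of the replication and cell cycle genes listed below, UHRF1, RECQL4 and PRIM2 had no 3′ end under their symbols in any library. Whether they lacked reads or an ORF entry was not tested. The order is therefore one of reads. CDT1 had 1072 ± 163 RPM in WT (SD, n = 5), MCM3 378 ± 57.8, MCM7 299 ± 15.7, MCM4 221 ± 44.3, MCM2 170 ± 26.8 and MCM5 169 ± 25.2. CDC6 stood at 94.3 ± 20.2, GMNN at 40.4 ± 6.47, MCM6 at 29.6 ± 6.46 and ORC1 at 2.65 ± 2.08. CDT1 exceeded MCM3 in 9 of 9 libraries, whereas MCM3 exceeded MCM7 in 5 of 5 WT libraries and in 1 of 4 R749H libraries. MCM2 exceeded MCM5 in 5 of 9 libraries, so these neighbours did not differ beyond their spread. MCM6 had the fewest reads of the helicase subunits, which form a hexamer with 1 copy of each. ORC1 was represented by 4 to 15 reads per library, too few for its 3′ ends to be tested.

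**Figure D1:**
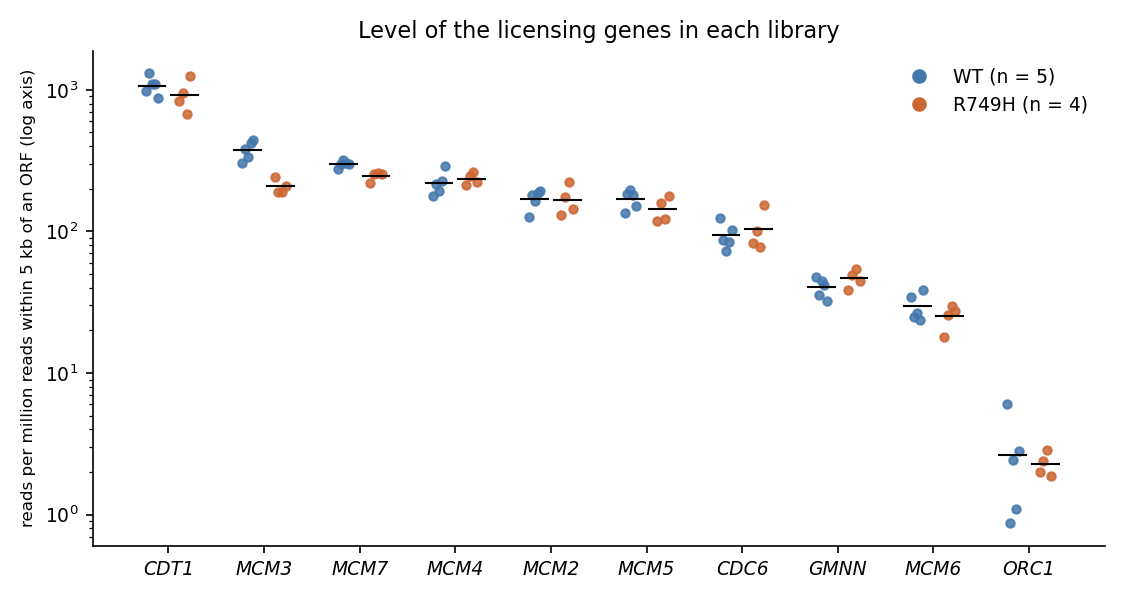
RPM (log axis) for each licensing gene in each of 5 WT (blue) and 4 R749H (orange) libraries, with bars at the group means. CDT1 lies highest and ORC1 lowest, and MCM3 and MCM7 are the genes whose groups do not overlap on this scale. Groups did not overlap for 25.4% of all genes in either direction.

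The first comparison asked whether the amount of each licensing mRNA differed between the R749H and WT lines. Levels were compared after scaling by TMM factors, which equalise the bulk of genes between libraries, and tested with limma across 9495 genes. Of the 10 genes, MCM3 fell and GMNN rose (adjusted p under 0.05), against 23.9% of all genes that were called in either direction, 10.9% higher and 12.9% lower. Both scalings have to be considered, because the TMM factors were above 1 in all WT libraries (1.04 to 1.26) and below 1 in all R749H libraries (0.81 to 0.97): the median gene changed by −0.07 on the log2 scale with the factors and by −0.38 without them. Without the factors, where 460 of all genes were called higher and 2482 lower, MCM3 remained lower, and GMNN was no longer called. With RLE factors, another way to equalise libraries, it was the reverse: MCM3 missed the threshold (−0.52; limma, adjusted p = 0.0512) and GMNN kept its call (0.54, adjusted p = 0.0381). In RNA of a whole culture, a smaller share of cells in the cycle phase that makes an mRNA cannot be told apart from less of that mRNA per cell.

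MCM3, a helicase subunit, had 306, 383, 333, 420 and 445 RPM in the WT libraries and 243, 191, 189 and 211 in the R749H libraries. Every R749H library was below every WT library on this scale, as was the case for 21.5% of genes. With TMM factors the values were 243, 367, 314, 388 and 413 in WT and 273, 218, 195 and 260 in R749H, and the groups overlapped through WT replicate 1. The log2 fold change was −0.53 (SE 0.18; limma, adjusted p = 0.0436), or −0.47 relative to the median gene, and −0.85 without the factors (adjusted p = 0.000796). With R749H replicate 3 left out it was −0.42 (adjusted p = 0.138), and the adjusted p also passed 0.05 without WT replicate 2 (0.0960), 3 (0.0565), 4 (0.105) or 5 (0.0722) and without R749H replicate 2 (0.133) or 4 (0.0656).

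GMNN, the inhibitor of CDT1, had 48.0, 35.3, 44.7, 41.6 and 32.4 RPM in WT and 38.3, 49.1, 54.4 and 44.9 in R749H, and these values overlapped. With TMM factors they were 38.1, 33.8, 42.1, 38.4 and 30.1 in WT and 43.1, 56.1, 55.9 and 55.3 in R749H, so that each R749H library lay above each WT library. Groups that do not overlap on this scale were found for 19.9% of genes. Relative to the median gene the value was 0.59 with and without the factors, which move all genes by nearly the same amount. The log2 fold change itself was 0.53 (SE 0.18, limma, adjusted p = 0.0430) with the factors and 0.21 (adjusted p = 0.414) without them. Without R749H replicate 3 it was 0.52 (adjusted p = 0.0728), and it also missed the threshold without WT replicate 2 (adjusted p = 0.0989), 4 (0.0793) or 5 (0.0760) and without R749H replicate 2 (0.102) or 4 (0.0826).

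The other 8 genes did not pass the threshold. MCM4 had a log2 fold change of 0.43 (SE 0.18; limma, adjusted p = 0.0984), and its call changed when WT replicate 5, its highest WT library, was left out (0.54, adjusted p = 0.0295). CDC6, the loading ATPase, was at 0.42 (SE 0.23, adjusted p = 0.180), and ranged from 0.19 (adjusted p = 0.526) without R749H replicate 4 to 0.61 (adjusted p = 0.0633) without R749H replicate 3. ORC1 was at 0.40 with an SE of 0.52 (0.12 to 0.72 with 1 WT library left out), and MCM2 was at 0.28 (SE 0.20), or 0.12 without WT replicate 1. MCM5, MCM6, MCM7 and CDT1 lay between 0.04 and 0.08 with SEs of 0.16 to 0.21, and without R749H replicate 3 CDT1 was at 0.29 (adjusted p = 0.324), MCM5 at 0.22 (adjusted p = 0.491) and MCM7 at 0.09. The values of MCM2, MCM5, MCM6, MCM7 and CDT1 became negative without the factors, from −0.04 to −0.28, so the direction of these 5 genes was set by the scaling. MCM7 had 274, 298, 317, 304 and 301 RPM in WT and 218, 254, 259 and 255 in R749H, without overlap, as for 25.4% of genes in either direction, yet it overlapped once the factors were applied.

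Taking the 10 genes as a list, 9 had a log2 fold change above that of the median gene, MCM3 being the exception. The factors move all genes by nearly the same amount (0.31 for the median gene), so the same count without them adds no evidence. MCM5, MCM6, MCM7 and CDT1 were only 0.10 to 0.15 above the median gene, each by less than its SE. ORC1 was 0.46 above the median gene, also by less than its SE (0.52). The median over the list was 0.18 with the factors and −0.14 without them, beside −0.07 and −0.38 for all genes tested. Among the 4005 genes that averaged 100 or more reads in a library the median was 0.07, and 8 of the 10 licensing genes were above it. ORC1 is among these 8, although it had only 4 to 15 reads per library.

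**Figure D2:**
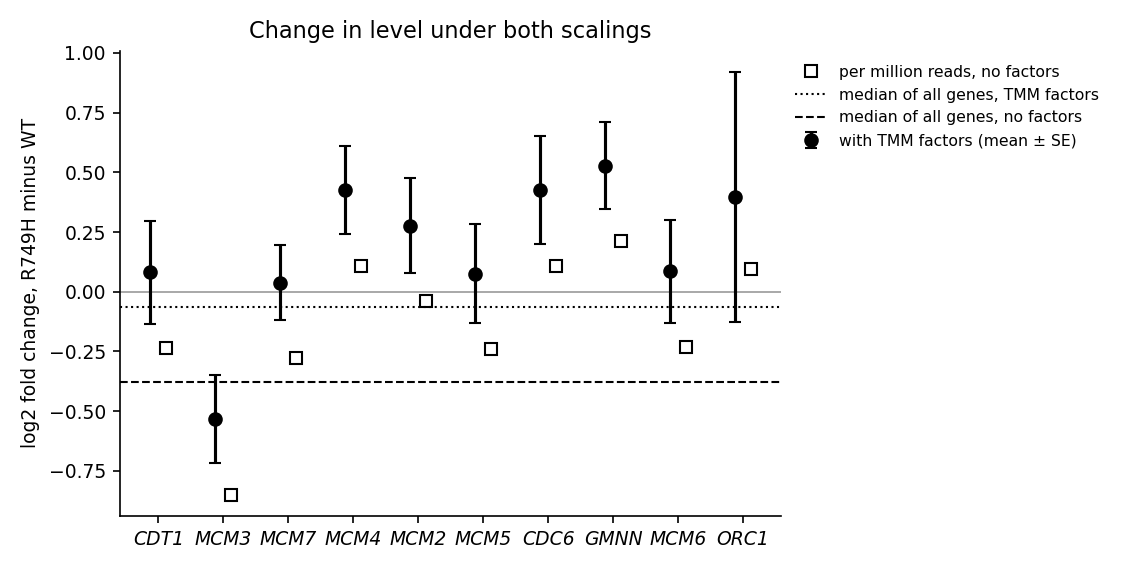
Log2 fold change (R749H minus WT) of each licensing gene with TMM factors (filled circles, ± SE from limma) and as RPM with no factors (open squares), with the median of all genes under each scaling as a dotted and a dashed line. MCM3 lies below the median gene and the other 9 genes lie above it. Distances from the median are nearly the same under both scalings because the factors move all genes by nearly the same amount.

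A measure within the helicase does not depend on the scaling of libraries. The share of MCM3 among all reads of MCM2 to MCM7 was 29.1, 29.7, 27.2, 31.3 and 31.3% in WT and 25.8, 18.2, 17.5 and 20.3% in R749H (means 29.7 ± 1.71 and 20.4 ± 3.76, SD). The share of MCM4 was 16.8, 16.9, 15.7, 16.9 and 20.6% in WT and 22.6, 23.5, 24.2 and 21.5% in R749H (means 17.4 ± 1.87 and 23.0 ± 1.17). MCM3 was lower in each R749H library than in each WT library, also with R749H replicate 3 left out. How often such shares separate the groups in other gene families was not computed. The share also uses the same MCM3 reads as above, where groups separated in this direction in RPM for 21.5% of genes, so it is not separate evidence. The shares sum to 100% and are tied, so a lower share of MCM3 raises the others: with MCM3 taken out of the total, MCM4 took 23.7, 24, 21.5, 24.6 and 30% in WT and 30.4, 28.7, 29.4 and 27% in R749H, and the groups overlapped. MCM2 took 13.4 ± 0.817% in WT and 16.2 ± 3.17% in R749H, MCM5 13.4 ± 1.99% and 14 ± 2.7%, MCM7 23.8 ± 2.08% and 24.0 ± 0.613%, and MCM6 2.36 ± 0.611% and 2.44 ± 0.371%. Although the hexamer holds 1 copy of each subunit, the mean RPM differed by up to 12.8-fold in WT (MCM3 against MCM6) and 9.8-fold in R749H (MCM7 against MCM6). Differences in recovery between genes may be part of this and were not tested. For the regulator and its inhibitor, CDT1 reads per GMNN read were 20.5 to 37.1 in WT (27.1 ± 6.12) and 12.3 to 27.9 in R749H (20.3 ± 6.46), with overlap.

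The second comparison asked whether the 3′ ends of these genes lay elsewhere in the R749H line than in the WT line. For each gene the reads downstream of its median 3′ end were set against the rest as log2 odds, which do not depend on the scaling of libraries, and tested with limma over the 7760 genes that averaged 20 or more reads in a library. Of the 9 licensing genes tested, only CDT1 was called, and its 3′ ends moved downstream. Calls were rare: 10 genes in all (0.129%), 3 of them downstream (0.0387%), and CDT1 had the fifth smallest p. In both CDT1 and GMNN the R749H and WT libraries did not overlap, as for 3.94% of genes in either direction.

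CDT1 reads downstream of +231 made up 10.4, 9.76, 11.4, 12.2 and 12.5% in the WT libraries (11.2 ± 1.16, SD) and 17.4, 15.4, 17.8 and 15.6% in the R749H libraries (16.5 ± 1.21). The groups did not overlap, as for 1.38% of genes in this direction, and the distance between the highest WT and the lowest R749H library was larger than either SD. The difference was 0.65 in log2 odds (SE 0.10; limma, adjusted p = 0.0258), and 0.61 (adjusted p = 0.0291) without R749H replicate 3. These shares rest on 2438 to 11081 CDT1 reads per library. The adjusted p was above 0.05 when WT replicate 1 (0.0706), 2 (0.117) or 3 (0.0651) or R749H replicate 2 (0.0613) or 4 (0.0726) was left out, with differences of 0.59 to 0.69.

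The CDT1 mRNA ended at 4 major positions in 2 clusters, +230 and +231 at the ATTAAA signal and +976 and +979 at the AATAAA signal shown above. The distal cluster is 745 nt past the proximal one and 4 nt before the annotated end of the gene. The distal cluster held 9.39, 8.14, 9.88, 10.8 and 10.7% of CDT1 reads in WT (9.78 ± 1.08) and 15, 13.4, 15.2 and 13.7% in R749H (14.3 ± 0.922), with each R749H library above each WT library. Its log2 odds differed by 0.63 (SE 0.13; limma over 18687 clusters, adjusted p = 0.0481), where 38 clusters (0.203%) were called and 3.69% did not overlap. Without R749H replicate 3 the difference was 0.59 (adjusted p = 0.0795), and the call was also lost without any other single library save WT replicate 5. The proximal cluster held 86 ± 1.25% and 81.5 ± 1% (−0.48, SE 0.12, adjusted p = 0.110), again without overlap. Both isoforms of the distal cluster had larger shares in R749H, +976 with 5.44 ± 0.548 and 8.06 ± 0.961% and +979 with 4.34 ± 0.607 and 6.24 ± 0.425%.

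**Figure D3:**
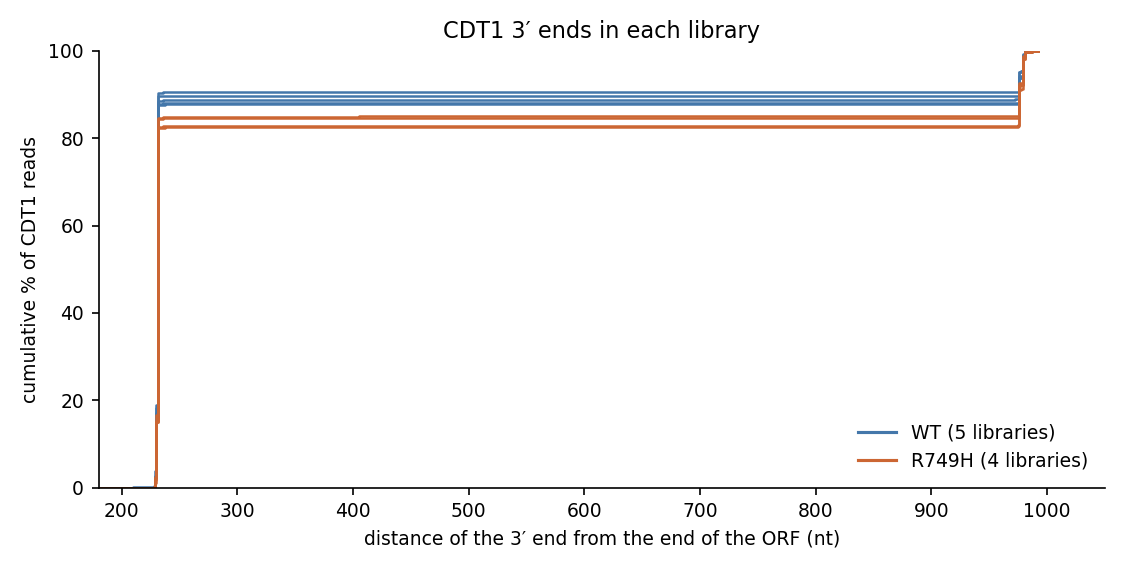
Cumulative share of CDT1 reads (%) against the distance of the 3′ end from the end of the ORF (nt), 1 line per library, for WT (blue, n = 5) and R749H (orange, n = 4). Reads accumulate at 2 places, near +231 and near +976, and between them the 5 WT lines run above the 4 R749H lines.

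GMNN had a smaller downstream share in R749H, without passing the threshold. Downstream of +249 lay 25.2, 25.3, 26.7, 29.4 and 30.8% of its reads in WT (27.5 ± 2.51) and 21.4, 16.1, 21.0 and 19.6% in R749H (19.5 ± 2.39). Each R749H library was below each WT library, as for 2.56% of genes. The difference was −0.65 in log2 odds (SE 0.21; limma, adjusted p = 0.265), or −0.69 (adjusted p = 0.232) without R749H replicate 3. Its 2 clusters are 47 nt apart, and the distal one with the AATATA signal held 23.9 ± 3.62% in WT and 18.1 ± 3.11% in R749H, with overlap (−0.51, adjusted p = 0.510). GMNN is the shallower of the pair, with 119 reads in its smallest library.

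MCM4 had 3 clusters, at +144, +1148 and +1379. The middle one held 55.1, 58.8, 54.0, 59.0 and 60.2% in WT (57.4 ± 2.67) and 45.4, 48.0, 42.8 and 50.3% in R749H (46.6 ± 3.24). The groups did not overlap, as for 3.69% of clusters in either direction. The log2 odds differed by −0.63 (SE 0.14, limma, adjusted p = 0.0789), or −0.55 (adjusted p = 0.130) without R749H replicate 3, so this cluster was not called. On either side of it, +144 held 4.76 ± 1.34 and 6.82 ± 1.80%, and +1379 held 33.3 ± 1.70 and 38.6 ± 6.65%, both with overlap. The division of all MCM4 reads at +1148 gave no call (40.8 ± 1.79 and 44.6 ± 6.38% downstream, adjusted p = 0.627).

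**Figure D4:**
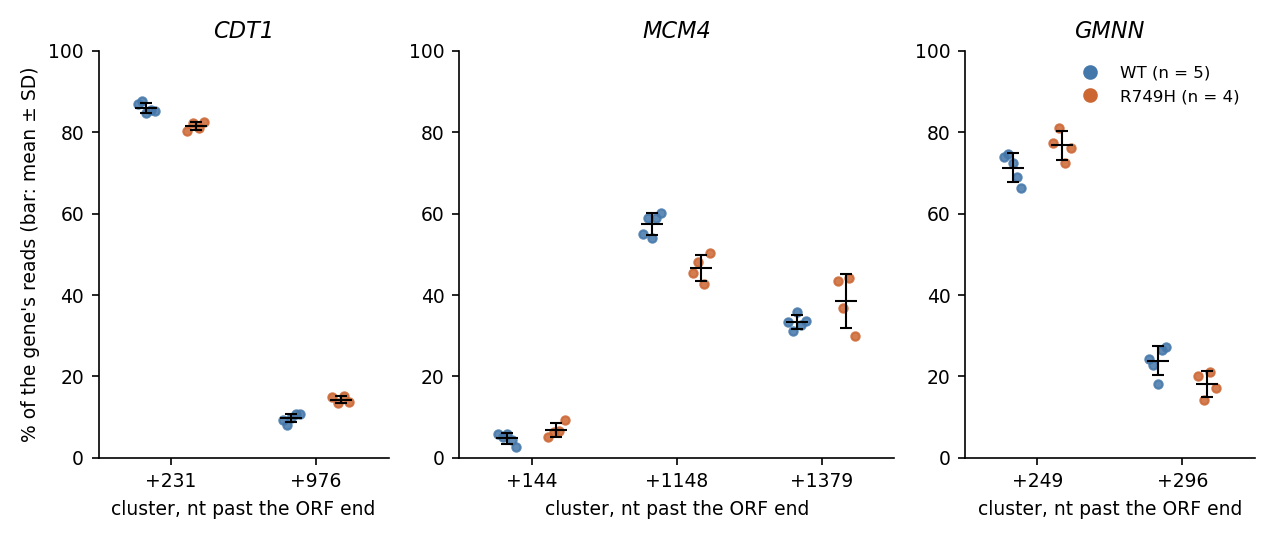
Share of each gene's reads (%) in the 3′ end clusters of CDT1, MCM4 and GMNN, by the distance of the cluster's largest isoform from the end of the ORF, in 5 WT (blue) and 4 R749H (orange) libraries with mean ± SD. The distal CDT1 cluster is higher, and the middle MCM4 cluster lower, in every R749H library than in every WT library. Groups did not overlap for 3.69% of all clusters in either direction.

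The other helicase genes had simpler 3′ ends. MCM2 ended almost entirely at +660 (91.5 ± 1.06% in WT, 92.1 ± 2.71% in R749H; log2 odds 0.20, or −0.14 without R749H replicate 3), with a second end 10 nt further on (6.43 ± 1.32 and 5.62 ± 1.99%), and 2 copies of AATAAA precede both. The annotation places a long non-coding RNA on the opposite strand there. MCM3 had 6 major isoforms that formed a single cluster at +565 to +574, with a mean position of 569.67 ± 0.174 in WT and 569.95 ± 0.226 in R749H. Downstream of +569 lay 45.4 ± 2.66 and 49.9 ± 3.64% of its reads (0.26, SE 0.12; limma, adjusted p = 0.467), and the groups overlapped. MCM5 had 82.6 ± 3 and 82.6 ± 1.85% of its reads at the single position +246. MCM6 had 87.9 ± 7.94 and 91.4 ± 4.02% at +390, well before the annotated end of that gene (819 nt). MCM7 used +151 (78.9 ± 2.33 and 82.2 ± 1.12%) and +199 (11.1 ± 1.36 and 9 ± 1.82%), and reads after +151 made up 19.7 ± 2.37 and 16.3 ± 1.31% (−0.33, SE 0.13, adjusted p = 0.393).

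CDC6 had reads at 71 positions, many of them with few reads, against 16 for MCM2. Its main cluster at +915 to +917 held 82.1 ± 4.85% in WT and 79.4 ± 3.66% in R749H, and the cluster at +823 that lacks all 12 signals held 7.70 ± 3.43 and 8.90 ± 1.36%. Neither differed by more than the spread (limma, adjusted p = 0.716 and 0.744). Its downstream share was 41.5 ± 3.42 and 43.6 ± 3.21%. The 9 genes tested had 1 to 6 major isoforms each, where the median over 7875 genes with a mean of 20 or more reads was 4. In 6 of these 9 genes they formed 2 or more clusters, as in 64.7% of genes. ORC1 had too few reads for such a count.

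**Figure D5:**
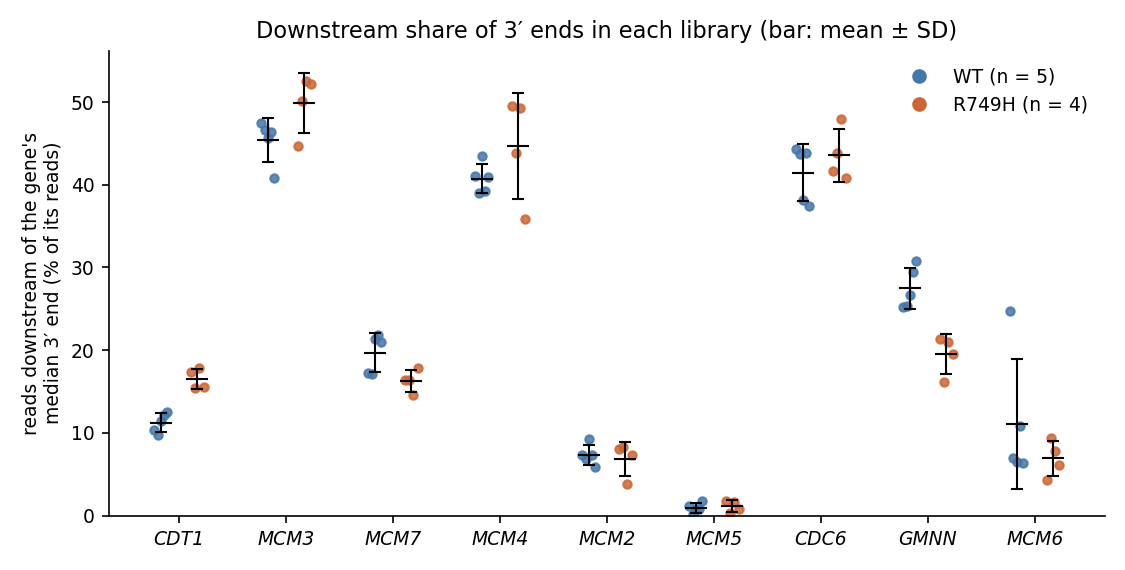
Share of each gene's reads (%) downstream of its median 3′ end in 5 WT (blue) and 4 R749H (orange) libraries, with mean ± SD. CDT1 is higher and GMNN lower in every R749H library than in every WT library, and the groups of the other 7 genes overlap. Groups did not overlap for 3.94% of all genes in either direction.

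Beyond the 10 genes, other parts of the replication machinery were read from fixed lists, with percentages of all genes called as above. Of 15 tested genes of the pre-replicative complex and its regulators, 2 rose, ORC6 (1.23, SE 0.22) and MCM8 (1.57, SE 0.32), and 0 fell, with a list median of −0.01. Among 14 helicase activation genes GINS2, a subunit of the GINS complex that completes the active helicase, rose (0.82) and 0 fell, with a list median of 0.18. At the replication fork 5 of 22 rose, among them the sliding clamp PCNA (1.41), the flap endonuclease FEN1 (0.91) and the clamp loader subunit RFC5 (0.76), and the clamp loader subunit RFC3 fell (−0.63), with a list median of 0.03. All of these come from limma with an adjusted p under 0.05 and with TMM factors. Without the factors the numbers that rose and fell were 2 and 2, 1 and 1, and 0 and 4. At that setting 460 of all 9495 genes tested rose and 2482 fell. Without R749H replicate 3, and with the factors, the lists had 2 and 0, 1 and 0, and 3 and 0. Of all 9764 genes then tested, 980 rose and 1113 fell. RFC5 (0.63, adjusted p = 0.0641) and RFC3 (−0.57, adjusted p = 0.0786) lost their calls without that library.

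Genes of the cell cycle moved in both directions. Of 13 tested G1/S genes, E2F1 (1.25) and the thymidine kinase TK1 (0.97) rose and 0 fell, with a list median of 0.28. Of 20 G2/M genes 5 rose, including the spindle proteins NUSAP1 (1.09) and TPX2 (0.94) and the ubiquitin-conjugating enzyme UBE2C (0.85), and 3 fell, the kinases TTK (−0.92), PLK1 (−0.89) and AURKB (−0.65), with a list median of 0.13. Without the factors these counts were 2 higher and 2 lower for G1/S, and 1 higher and 5 lower for G2/M. Without R749H replicate 3 they were 2 and 0, and 4 and 3. All genes had 460 higher and 2482 lower of 9495 without the factors, and 980 and 1113 of 9764 without that library. The part of the cells' cycle distribution in the values of the licensing genes was not tested.

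The levels of genes near a member on the chromosome were set beside its own. Within 5 Mb of CDT1 the median of 51 genes was 0.36, with 17 called higher and 5 lower, while the median over all 480 genes tested on chromosome 16 was −0.05. Around CDC6 the median of 121 genes was −0.50, with 6 higher and 41 lower, and the whole of chromosome 17 had a median of −0.44, beside 0.42 for CDC6 itself. Around MCM3 (14 genes, 0.06) and GMNN (32 genes, 0.05) the medians were near 0, and without R749H replicate 3 they were −0.11 and 0.09, beside 0.35 around CDT1 and −0.40 around CDC6. The part of these surroundings in the members' levels was not tested.

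The mean centred log2 level of the 10 genes, with TMM factors, was −0.18, −0.11, −0.04, −0.13 and 0.06 in the WT libraries and −0.10, 0.17, 0.00 and 0.33 in the R749H libraries, and the groups overlapped. Over these 9 libraries the genes most like this profile among 4005 genes with at least 100 reads were USP36 (Pearson r = 0.985), YIPF4 (0.959) and C6orf1 (0.949), given as a description with no test. Each member is part of the profile, so each was set against the mean of the other 9 members instead, where r ran from −0.452 for MCM3 to 0.65 for CDC6. ORC1, at −0.276, has the same weight as the rest, though its 4 to 15 reads gave 0.835 to 4.8 RPM with TMM factors. The part of its counting error in the profile and in these r values was not tested.

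The promoters of 8 of the 10 genes were matched in RefSeq (GRCh38.p14), as 300 bases around the transcription start, and the entries of MCM4 and MCM5 are missing. The letters TTTCCCGC, TTTGGCGC and TTTCGCGC, forms of the E2F motif, were searched on both strands, where they can overlap one another. TTTCCGGC was searched as well, but it lacks their CGC ending and is not taken as a form of that motif. At least 1 of these 4 was found in 7 of the 8, all but GMNN, and in 3.99% of 35116 promoters of the same length. ORC1 is among the 7 only through TTTCCGGC. TTTCGCGC alone was in MCM2, MCM3, MCM6 and MCM7 (0.515% of all promoters), TTTCCCGC in CDT1, MCM3 and MCM7 (1.63%), TTTGGCGC in CDC6 and MCM6 (0.652%) and TTTCCGGC in ORC1 (1.32%). CCAAT, the letters bound by NF-Y, was in 5 of 8 and in 34.6% of all promoters. These matches describe letters and not bound sites.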

How the data were processed

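3′ READS libraries of HEK293 Flp-in TREX cells with WT (5) or R749H (4) Rpb1 were used, and the 4 NETseq libraries are not analysed here. The signal values deposited by the authors are reads per 3′ end, mapped with bowtie to hg19 without mismatches in the first 30 nt, kept if they had non-templated As, assigned to ORF ends within 5 kb, and scaled by the authors to a total of 7 M poly(A) reads for a replicate (25 M for pooled replicates). Values were divided by the library's smallest step to recover whole reads, and 100% were whole within 0.0053. The pooled values of 134734 R749H and 176030 WT isoforms equalled the rebuilt ones. Multiple reads of a 3′ end may be PCR copies.

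Expression used log2 CPM with TMM factors and filterByExpr (prior count 0.5), and shifts and clusters used log2 odds (0.5 reads added in proportion to depth), both tested with limma 3.58.1 and edgeR 4.0.16 in R 4.3.3 with Benjamini-Hochberg adjustment over all features and a threshold of 0.05. limma was the test because the deposited values are scaled. Major isoforms exceeded 5% of the gene's largest, and clusters joined those no more than 4 nt apart. Methods were tested on simulated data. edgeR's quasi-likelihood test, DESeq2 1.42.0, other scalings, filters, spacings and thinned libraries were tried. Annotation was GENCODE v44lift37, and figures and sequence searches used Python 3.11.15. The 10 genes, lists and tests were chosen with earlier results of these data known. Genes named beyond the members were the 3 of each list with the largest called changes in each direction and the 3 most like the members' profile. Chi-square per degree of freedom between replicates was 3.76 to 33.8, more than counting error alone gives, so none was a plain repeat of another's reads. It cannot show whether libraries came from separate RNA or cultures.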

Additional observations from a re-analysis of the deposited data

Results flagged for a closer look

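Of 64 groups of values of the licensing genes, 4 had a library far from the others of its group by Dixon's test, where chance flags about 1 group in 20. MCM7 had 218 RPM in R749H replicate 1 and 254 to 259 in the other R749H libraries. The downstream share of MCM3 was 40.8% in WT replicate 5 (962 of 2359 reads, exact 95% interval 38.8 to 42.8%) and 45.7 to 47.5% in the other WT libraries. The downstream share of MCM6 was 24.7% in WT replicate 1 (21 of 85 reads, exact 95% interval 16.0 to 35.3%) and 6.37 to 10.8% in the others, and 17 of those reads were at the single position +1207. MCM2 ended at +660 in 96.2% of reads in R749H replicate 3 (exact 95% interval 94.6 to 97.3%), the library with few single-read isoforms, and in 90.3 to 91.2% in the others.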

How the results depend on the processing

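Of 559 alternative values, 451 kept their direction and side of the threshold or stayed within the set range. The number of licensing genes called for expression, 2, became 1 with RLE factors and without the filter on low counts (MCM3 lost, adjusted p = 0.0512 and 0.0775), with the authors' scaling alone (GMNN lost), and in the replicate block, and 0 to 2 with 1 library left out. The replicate block covers replicates 1 to 4 and so also leaves out WT replicate 5, without which the count was already 1. It stayed at 2 with edgeR and DESeq2. For shifts, 1 became 0 by the mean distance from the stop codon (CDT1 39.3 nt, adjusted p = 0.0724), and 0 to 1 with 1 library left out. For clusters, 1 became 0 at a spacing of 12 nt (CDT1 +976, adjusted p = 0.113) and at a prior count of 0.1 (0.0877), and was 0 with isoforms above 10%, where the distal CDT1 isoforms fell under the limit and were not tested, and 0 to 1 with 1 library left out. Over all genes, 10 were called for shifts, against 27 at the midpoint division, 3 by mean distance, 23 in the replicate block (12 without WT replicate 5 alone) and 4 to 25 with 1 library left out. The 38 clusters called became 23 with isoforms above 10%, 14 at a prior count of 0.1, 68 in the replicate block (39 without WT replicate 5 alone) and 7 to 141 with 1 library left out.

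With the authors' scaling alone the log2 fold changes were −0.040 (MCM2), −0.24 (MCM5), −0.23 (MCM6), −0.28 (MCM7) and −0.24 (CDT1), and MCM6 was at −0.15 in libraries thinned to the smallest. With 1 library left out, MCM5 ranged from −0.060 to 0.22, MCM7 from −0.043 to 0.11 and CDT1 from −0.10 to 0.29. Shifts reversed at the midpoint division for MCM4 (−0.87), MCM5 (−0.061) and CDC6 (−0.50), and by mean distance for MCM4 (−37.2 nt), MCM5 (−1.54 nt) and MCM7 (15.8 nt). With 1 library left out, the shift ranged from −0.26 to 0.13 for MCM2 and from −0.13 to 0.77 for MCM5, and the MCM2 clusters from −0.14 to 0.34 at +660 and from −0.41 to 0.063 at +670. The causes were not tested. The lists and neighbouring genes without R749H replicate 3 were added after the data were seen.

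Libraries with the same replicate number did not deviate together (r = −0.071 to 0.051 for the 4 numbers), so the numbers were not taken to pair them. In the replicate block, as without WT replicate 5 alone, CDT1 kept its calls, MCM4 was called for expression (0.54, adjusted p = 0.0333 and 0.0295), and MCM3 (−0.47, adjusted p = 0.0859 and 0.0722) and GMNN (0.46, adjusted p = 0.115 and 0.0760) were not, so the block changed no call of a member beyond the library it drops. Each 3′ end is listed for 1 gene, so the alternative of dropping shared ends was the same as the reported analysis and was not run. ORC1 is limited by its depth.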
